A study of Mus musculus with 12 samples.

Results

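The genes described here are 51 regulators and effectors of the mouse cell cycle, measured by RNA-seq in embryonic stem cells (ESCs). They were taken by name, in 7 classes: 9 cyclins, 8 cyclin-dependent kinases (CDKs) with the enzymes that switch them, 6 CDK inhibitors, 3 pocket proteins, 8 E2F transcription factors, 10 genes of replication licensing and the sliding clamp, and 7 mitotic or proliferation genes. All 51 are among the 23496 genes of the expression table, and all 51 passed the filter on low values that left 12329 genes for testing, so none is missing from the counts below. Cdkn2c, below 1 FPKM in all 4 FBS libraries, passed through its levels in 2i.

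The study holds 12 libraries in 3 groups of 4: wild-type ESCs in 2i, Tfcp2l1 knockout ESCs in 2i, and wild-type ESCs in FBS. Tfcp2l1 is a transcription factor of naive ESCs. The 2i medium is serum-free, with N2 and B27 supplements, 3 µM CHIR99021 (a GSK3 inhibitor) and 1 µM PD0325901 (a MEK inhibitor), while the FBS medium has 15% fetal bovine serum and neither inhibitor, and both contain 1000 units/mL of the cytokine LIF. The design asks which transcripts depend on Tfcp2l1 in 2i (wild type against knockout) and how wild-type cells differ between 2i and FBS. The labels give neither the ESC line, the deleted exons nor whether the knockout cells are 1 clone, and they do not say that the 4 repeats of a group are separate cultures, so the p-values measure the spread between these libraries, which may be technical. The wild-type libraries in 2i, called 2i controls below, serve in both comparisons, so the differences in one are not independent of those in the other.

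As background, the cell cycle is driven by CDKs that work only when bound to a cyclin. D cyclins with Cdk4 or Cdk6 act first in G1 and E cyclins with Cdk2 at the start of S phase. Together they phosphorylate the pocket proteins (Rb1 and its relatives), which otherwise hold E2F factors and silence their targets. CDK inhibitors hold these kinases back. Replication origins are licensed in G1, when Cdc6 and Cdt1 load the ring of Mcm2 to Mcm7 that later becomes the replicative helicase, and Gmnn blocks Cdt1 afterwards. Cdk1 with A and B cyclins drives mitosis. Mouse ESCs are known for a short G1 phase.

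Expression is given as FPKM, fragments scaled to transcript length and to the library total, so that levels of different genes can be set beside each other. The number of reads behind a value is unknown, since no counts were used, and summed FPKM ranged from 347772 to 358340 per library. The targeted gene, Tfcp2l1 (chr1:120524522-120581745, mm9), measured 133.3, 143.2, 112.3 and 139.3 FPKM in the 2i controls, 76.1, 72.0, 83.0 and 84.7 in the knockouts and 25.8, 37.1, 30.7 and 31.5 in FBS. It was lower in every knockout library than in any wild-type library in 2i (log2 difference -0.73 ± 0.10 (SE), adjusted p = 0.000119; exact two-sided permutation test, p = 0.0286, the smallest that 70 splits allow), but its transcript was not lost. The defining ESC gene Pou5f1 was at a mean of 936, 805 and 760 FPKM in 2i controls, knockouts and FBS cells. The 8 ESC markers summed to 2174.6 to 2514.3, 1865.7 to 1978.1 and 1793.2 to 1964.6 FPKM, with 5 lower and 0 higher in the knockout (limma; 5 and 0 at an unadjusted p under 0.05) and 6 higher and 1 lower in 2i than in FBS. Genes of fibroblasts, which are used as feeder cells in ESC culture, were present in every library: 20 markers, among them collagens, summed to 189.6 to 312.1 FPKM in the 2i controls, 357.4 to 607.0 in the knockouts and 158.0 to 228.5 in FBS. Of these 20, 17 were higher in the knockout and 0 lower (limma, with 18 and 0 at an unadjusted p under 0.05). Between media they split: 9 were higher and 6 lower in 2i than in FBS, with differences from -4.47 to 3.06. Col1a1, the highest in 2i, averaged 69.5, 130.7 and 25.4 FPKM, and Pdgfra, the lowest in the 2i controls, 0.77, 1.14 and 1.27 FPKM. Markers of other lineages also differed between the groups. The 7 trophoblast markers summed to 33.4 to 50.2 FPKM in the 2i controls, 58.4 to 67.8 in the knockouts and 233.3 to 298.8 in FBS; of the 6 tested, 4 were higher in the knockout and 6 lower in 2i than in FBS, and Elf5 was at most 0.368 FPKM. The 6 neural markers summed to 9.68 to 25.3, 24.9 to 31.99 and 34.5 to 58.3 FPKM, mostly Tubb3 and Nes, the 2 tested, which were higher in the knockout and lower in 2i than in FBS. The 12 endoderm markers summed to 405.9 to 513.6, 346.9 to 485.1 and 170.3 to 210.9 FPKM, mostly Sparc; of the 6 tested, 3 were higher and 1 lower in the knockout and 1 was higher and 3 lower in 2i, while Afp and Ttr were at most 0.355 FPKM in any library. For scale, 45.3% of all tested genes were called in the knockout (24.0% higher, 21.4% lower) and 72.4% between media (37.1% higher in 2i, 35.3% lower). The 75.0% of fibroblast markers called between media is close to that share. The part of the ESC, trophoblast, neural and endoderm lists in the results below was not tested. In bulk RNA, more cells of a type and more RNA per cell cannot be told apart.

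Cell cycle genes were expressed well above the typical gene. Their median level was 39.1 FPKM in the 2i controls, 41.8 in the knockouts and 40.2 in FBS, against 9.70, 9.66 and 9.33 FPKM for all tested genes. Cdk4 was the highest of the 51 in all 3 groups, at 285.5 to 313.2 FPKM. The lowest was Cdkn2c in the 2i controls and in FBS (1.61 and 0.695 FPKM) and E2f2 in the knockout (1.17 FPKM). In the 2i controls, 12 of the 51 had a mean of at least 100 FPKM and 8 a mean below 5.

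**Figure D1:**
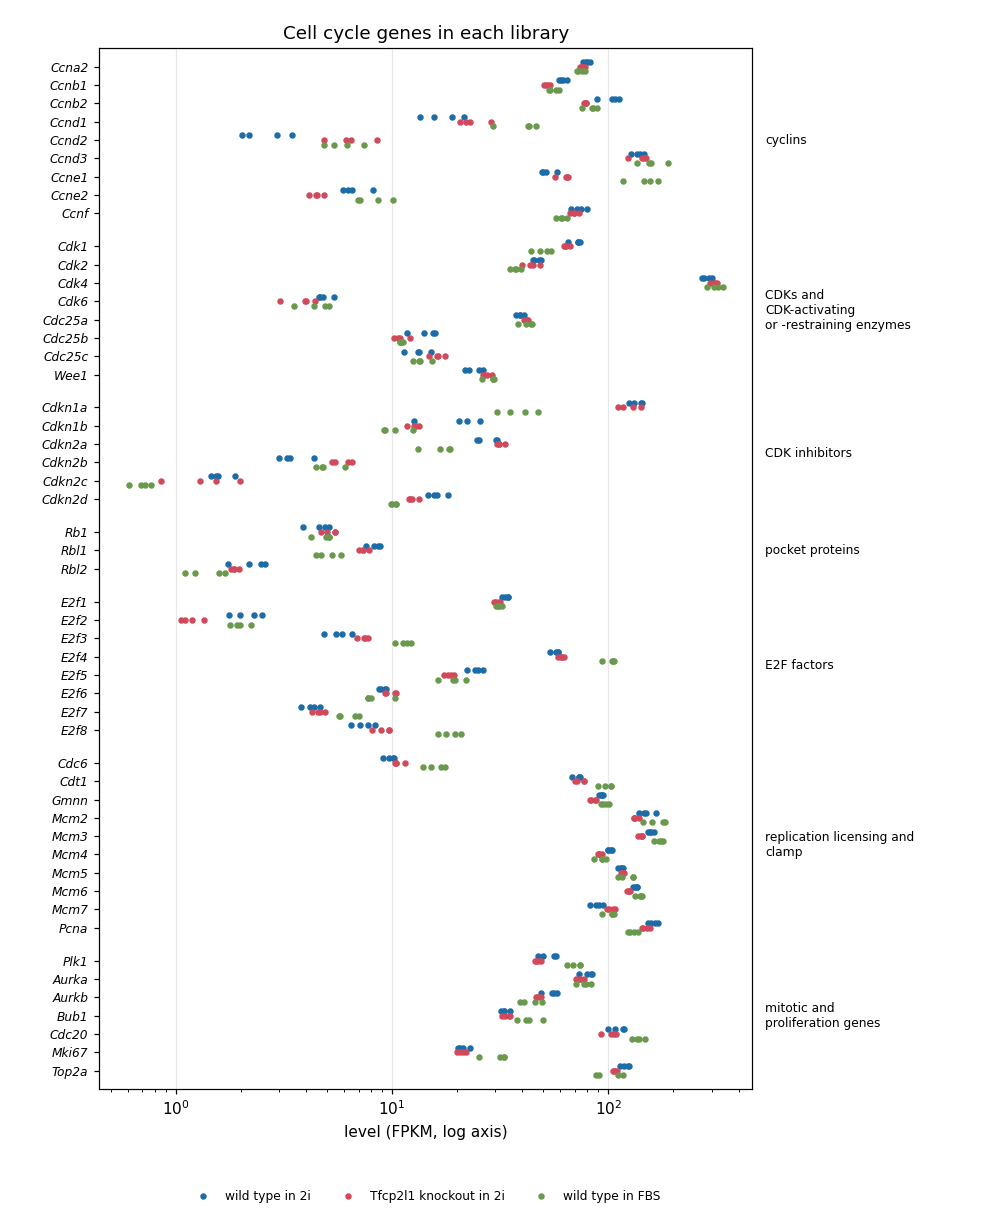
Level of each of the 51 cell cycle genes (rows, by class) in FPKM on a log axis, with 1 point for each of the 12 libraries, coloured by group. Cdk4 lies farthest right in all groups, and Cdkn1a shows the largest ratio of means between 2i and FBS in wild type (3.50).

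In the knockout, cell cycle genes moved in both directions, mostly by small amounts. In 2i, 9 of the 51 were higher in the knockout, 14 were lower and 28 did not pass the test (limma, adjusted p below 0.05). Ccnd2, a G1 cyclin, was the only one to differ by 1 or more on the log2(FPKM + 1) scale, 2.46-fold between the group means. Cdkn2b, an INK4 inhibitor of Cdk4 and Cdk6, was 1.68-fold higher, and Cdkn1b, which encodes p27, was 1.60-fold lower. E2f2, Ccne2, Ccnb2, E2f5 and Cdc25b were also lower. The share of members called is close to that of the whole table, where 45.3% of the 12329 genes were called (24.0% higher, 21.4% lower). The median log2 difference was -0.10 over the 51 and 0.01 over all tested genes, and the median absolute difference was 0.15 and 0.17. For 22 of the 51 the ranges of the 4 knockout and 4 wild-type libraries did not overlap, against 44.1% of all genes. Scaling the libraries by median ratios gave 6 higher and 18 lower. With the fibroblast marker level as a term in the model the standard errors grew from a median of 0.07 to 0.13. In that fit 0 members were higher and 2 lower, Ccnb1 and Plk1 (limma, with 3 and 9 at an unadjusted p under 0.05), and 16.1% of all genes were called. The marker level did not overlap between the 2i controls and the knockouts, so the model cannot separate it from the knockout. The fitted differences of the 23 called members did not all shrink in that model: 8 were as large or larger, 14 were smaller and 1, Ccnd1, turned. Among the 8 were Ccnb2 (-0.39 in both models), Ccne2 (-0.49 in both), E2f5 (-0.39 and -0.41), Ccne1 (0.26 and 0.31), E2f8 (0.27 and 0.39) and Cdc25c (0.27 and 0.40); E2f2 went from -0.52 to -0.45.

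More of them passed between media. In wild-type cells 20 of the 51 were higher in 2i than in FBS, 18 were lower and 13 did not pass. Cdkn1a, which encodes the CDK inhibitor p21, was 3.50-fold higher in 2i, and Ccne1 (cyclin E1), E2f8 and Ccnd1 (cyclin D1) were 2.83-fold, 2.52-fold and 2.32-fold lower. These 4 were the only members with a difference of 1 or more on the log2 scale. Here too the share called is close to the 72.4% of all genes (37.1% higher in 2i, 35.3% lower), and the median absolute difference was 0.31 over the members and 0.35 over all genes. The ranges did not overlap for 28 of the 51, against 62.5% of all genes. With the fibroblast marker level in the model, 19 were higher and 17 lower.

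**Figure D2:**
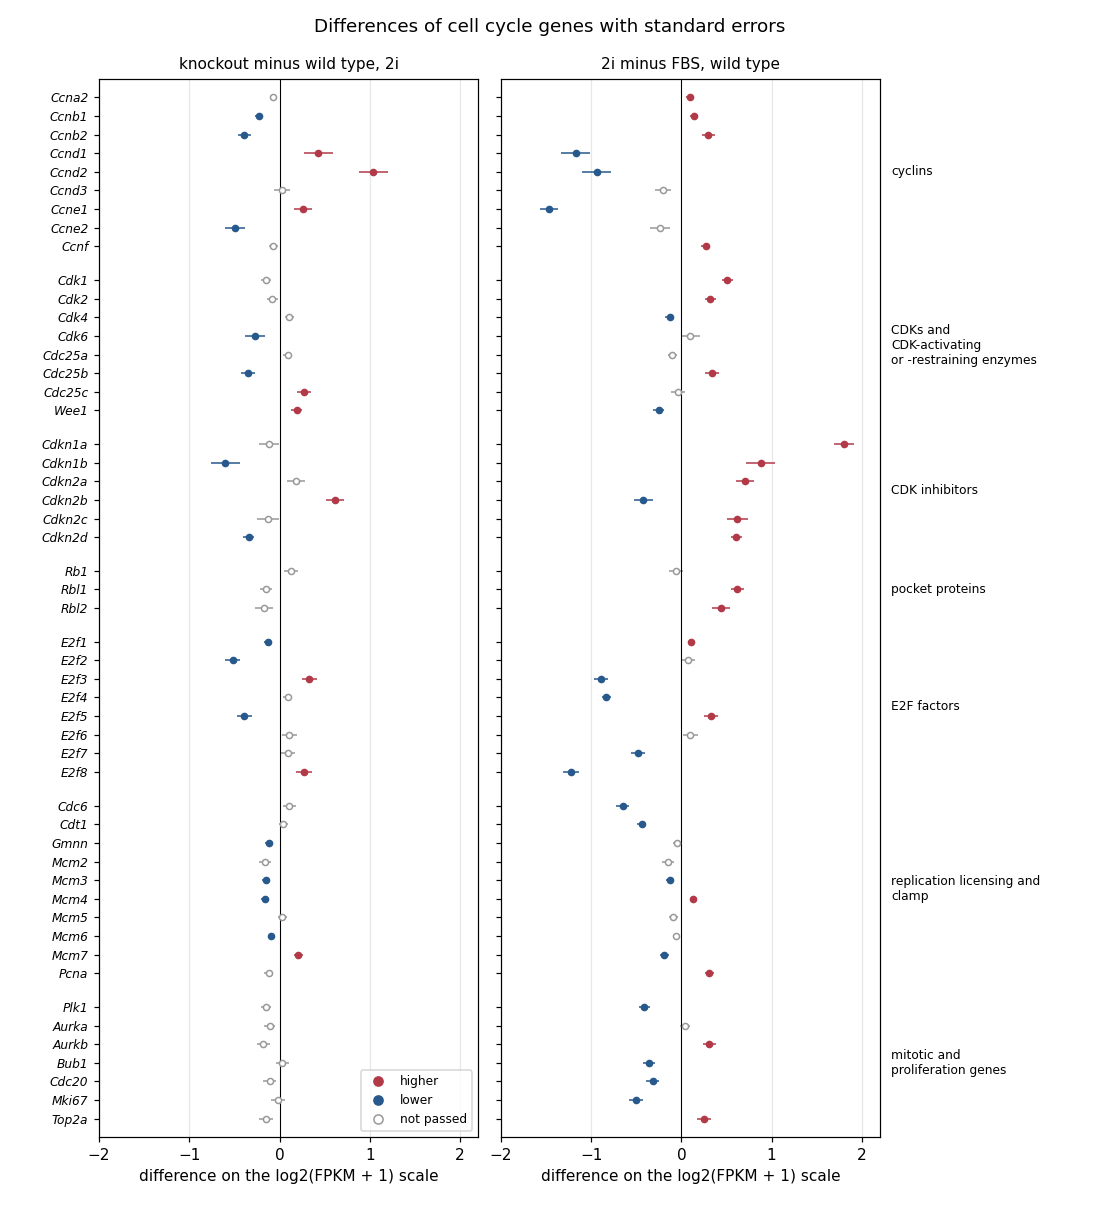
Difference of each of the 51 genes on the log2(FPKM + 1) scale, knockout minus the 2i controls (left) and 2i minus FBS in wild type (right), with bars of 1 standard error. Filled points passed the test; Ccnd2 stands farthest from 0 on the left (1.04) and Cdkn1a on the right (1.8).

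Of the 9 cyclins, 3 were higher and 3 lower in the knockout, and 4 were higher and 3 lower in 2i than in FBS. Of the 3 D cyclins, which pair with Cdk4 and Cdk6, Ccnd1 and Ccnd2 passed in both comparisons and Ccnd3 in neither. Ccnd3 (chr17:47730416-47736637) held most of the D cyclin transcript, at 135.7, 146.7, 126.8 and 140.1 FPKM in the 2i controls, 142.8, 149.7, 146.6 and 123.1 in the knockouts and 153.4, 157.1, 135.4 and 189.7 in FBS. Its groups overlapped, and neither difference passed (0.03 ± 0.09 and -0.20 ± 0.09, adjusted p = 0.804 and 0.0644), though without FBS replicate 3 the second did (adjusted p = 0.0128). Ccnd1 (chr7:152115836-152125830) measured 15.6, 13.4, 21.5 and 18.9 FPKM in the 2i controls, 20.6, 21.9, 23.02 and 28.6 in the knockouts and 46.1, 42.8, 29.2 and 42.5 in FBS. Every FBS library was above every 2i library of wild type, and the difference was -1.17 ± 0.16 (adjusted p = 2.38e-05). Between knockout and wild type 1 wild-type library reached into the knockout range (0.43 ± 0.16, adjusted p = 0.0429), and this call was lost without knockout replicate 2, 3 or 4 or wild-type replicate 1 or 2 (adjusted p 0.0604 to 0.125), under median-ratio scaling (0.0538) and with no filter on low values (0.0711).

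Ccnd2 (chr6:127075727-127101066) measured 2.18, 2.02, 2.93 and 3.43 FPKM in the 2i controls, 4.85, 6.15, 6.47 and 8.55 in the knockouts and 7.45, 6.17, 4.83 and 5.37 in FBS. All knockout and all FBS libraries lay above all wild-type 2i libraries. The differences were 1.04 ± 0.16 for the knockout (adjusted p = 0.000295) and -0.94 ± 0.16 for 2i against FBS (adjusted p = 0.000185). As a share of the D cyclin sum, Ccnd3 accounted for 87.3% ± 2.9 in the 2i controls, 82.3% ± 3.7 in the knockouts and 77.5% ± 2.8 in FBS (SD, n = 4 each), and Ccnd1 for 11.1%, 13.9% and 19.6%. The sum itself was 157.4 ± 5.8, 170.6 ± 8.0 and 205.0 ± 27.9 FPKM.

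Among the knockout libraries, Ccnd1, Ccnd2 and Cdkn2b rose in the order of the fibroblast marker sum, but they were not alone. Cdkn2a, Gmnn (82.0, 83.5, 87.2 and 87.7 FPKM) and Pcna (142.4, 145.2, 151.3 and 155.5 FPKM) rose in that order too. Gmnn and Pcna averaged lower in the knockouts than in the 2i controls. Control replicates 1 to 4 had marker sums of 189.6, 220.7, 275.6 and 312.1 FPKM, and Ccnd1, Ccnd2 and Cdkn2b did not rise in that order there. Knockout replicate 4 had the highest marker sum of the 12 libraries (607.0 FPKM) and the highest Ccnd2 and Cdkn2b, and knockout replicates 1 to 4 had marker sums of 357.4, 414.9, 480.2 and 607.0 FPKM beside 4.85, 6.15, 6.47 and 8.55 FPKM of Ccnd2 and 5.27, 5.46, 6.25 and 6.50 FPKM of Cdkn2b. With the marker level in the model the difference of Ccnd2 was 0.30 (adjusted p = 0.161), that of Cdkn2b 0.28 (adjusted p = 0.233) and that of Ccnd1 -0.08 (adjusted p = 0.855). The marker level, a mean of log2(FPKM + 1), was 2.45 to 2.965 in the 2i controls and 3.086 to 3.709 in the knockouts. These ranges do not overlap, so the model cannot separate the marker level from the knockout. In FBS, where the marker sum was lowest on average, every library had more Ccnd1 than any library in 2i, and Ccnd2 overlapped the knockout range.

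**Figure D3:**
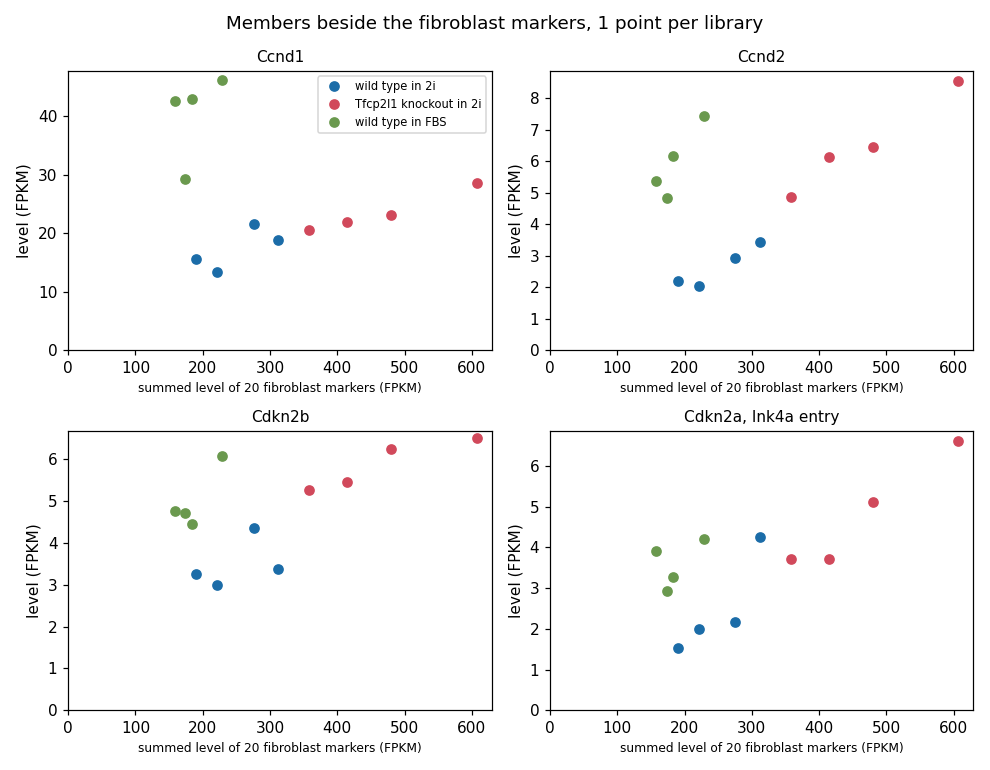
Level of Ccnd1, Ccnd2, Cdkn2b and the Ink4a entry of Cdkn2a in FPKM against the summed FPKM of 20 fibroblast markers, 1 point for each of the 12 libraries. The 4 knockout libraries lie at marker sums of 357.4 to 607.0 FPKM, right of all others, and the 4 FBS libraries, at 158.0 to 228.5 FPKM, exceed them in Ccnd1 and overlap them in the other 3 panels.

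The E cyclins are partners of Cdk2; Ccne1 was lower in 2i than in FBS, and Ccne2 was lower in the knockout. Ccne1 (chr7:38883003-38892509) measured 49.9, 49.1, 51.4 and 57.6 FPKM in the 2i controls, 64.3, 65.0, 63.6 and 56.6 in the knockouts and 146.0, 156.5, 116.8 and 168.9 in FBS. The FBS libraries stood far above all others (-1.47 ± 0.10, adjusted p = 3.23e-08). The knockout difference was 0.26 ± 0.10 (adjusted p = 0.0432), with knockout replicate 4 inside the wild-type range, and it was lost without knockout replicate 1, 2 or 3 or wild-type replicate 1, 2 or 3 (adjusted p 0.0676 to 0.100), under median-ratio scaling (0.0741) and with no filter (0.0683). Ccne2 went the other way in the knockout: 6.27, 5.94, 8.19 and 6.54 FPKM in the 2i controls against 4.51, 4.15, 4.82 and 4.46, with no overlap (-0.49 ± 0.11, adjusted p = 0.00344). In FBS Ccne2 measured 7.07, 8.62, 6.92 and 10.1 FPKM (adjusted p = 0.0679); that comparison passed without wild-type 2i replicate 3 or FBS replicate 1 or 3 (adjusted p 0.0138 to 0.0399) and under quantile normalization (0.0436). The ratio of summed D to summed E cyclin FPKM was 2.69 ± 0.19 in the 2i controls, 2.55 ± 0.08 in the knockouts and 1.32 ± 0.05 in FBS (SD, n = 4).

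Among the cyclins of S phase and mitosis the differences were small. Ccnb2 (chr9:70255496-70269361), a B cyclin, measured 104.3, 112.3, 88.2 and 107.5 FPKM in the 2i controls, 77.6, 77.1, 78.6 and 78.6 in the knockouts and 85.1, 83.8, 89.1 and 75.8 in FBS. The knockout libraries were tightly grouped below all wild-type ones in 2i (-0.39 ± 0.07, adjusted p = 0.000599). In wild type 2i exceeded FBS by 0.30 ± 0.07 (adjusted p = 0.0015). Ccnb1 was also lower in the knockout, 52.1 ± 1.4 against 61.4 ± 2.3 FPKM (SD, n = 4), and higher in 2i than in FBS (55.8 ± 2.9 FPKM). Ccnf, whose cyclin F is part of a ubiquitin ligase, was higher in 2i than in FBS (0.27 ± 0.05) and did not pass in the knockout. Ccna2 averaged 74.4 to 79.3 FPKM in the 3 groups; its call as higher in 2i (0.09 ± 0.04, adjusted p = 0.0494) held without wild-type replicate 2 or FBS replicate 1 and was lost without any of the other 6 libraries (adjusted p 0.0508 to 0.138), under both rescalings, with the 8 libraries of the comparison fitted alone and with the highest entry per symbol (0.0513 to 0.0992).

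Of the 8 CDKs and switching enzymes, 2 were higher and 2 lower in the knockout, and 3 were higher and 2 lower in 2i than in FBS. Cdk4 (chr10:126500659-126504338), the G1 kinase, measured 293.2, 269.9, 275.8 and 302.9 FPKM in the 2i controls, 317.8, 295.2, 310.0 and 308.9 in the knockouts and 321.2, 307.1, 286.5 and 338.0 in FBS. The groups overlapped; 2i was below FBS by a margin near the threshold (-0.13 ± 0.05, adjusted p = 0.0415) that was lost without wild-type replicate 2 or 3 or FBS replicate 1, 2 or 4 (adjusted p 0.0551 to 0.127), with no filter, with 8 libraries alone and under quantile normalization (0.0631 to 0.106). Under quantile normalization Cdk4 passed as higher in the knockout (0.13, adjusted p = 0.0436; otherwise 0.11, adjusted p = 0.114). Its relative Cdk6 was at 3.9 to 4.9 FPKM, and Cdk4 made up 69.9%, 73.4% and 77.4% of the summed Cdk1, Cdk2, Cdk4 and Cdk6 transcript in 2i controls, knockouts and FBS cells. Cdk6 measured 4.79, 5.38, 4.63 and 4.61 FPKM in wild type and 4.42, 4.00, 3.04 and 3.97 in the knockout (-0.27 ± 0.11, adjusted p = 0.0498); when 1 library was left out, this call held only without knockout replicate 1 and was lost without each of the other 7 (adjusted p 0.0558 to 0.152), and it was also lost with either smaller pseudocount, with no filter and with the highest entry per symbol (0.0512 to 0.0792).

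Cdk1 (chr10:68799383-68815660), the mitotic kinase, measured 72.5, 64.9, 74.3 and 72.7 FPKM in the 2i controls, 63.4, 62.9, 66.3 and 62.3 in the knockouts and 54.4, 43.7, 52.0 and 48.5 in FBS. Every 2i library was above every FBS library of wild type (0.51 ± 0.06, adjusted p = 1.03e-05). The knockout difference did not pass (-0.15 ± 0.06, adjusted p = 0.0648); it passed as lower without wild-type replicate 2 (adjusted p = 0.0269), with the 8 libraries of the comparison fitted alone (0.0257) and under median-ratio scaling (0.0315). Among the phosphatases that activate CDKs, Cdc25b measured 14.1, 15.8, 11.8 and 15.4 FPKM in the 2i controls, 10.9, 12.1, 10.6 and 10.2 in the knockouts and 10.96, 10.87, 11.22 and 10.93 in FBS. It fell in the knockout (-0.35 ± 0.08, adjusted p = 0.00342) and was higher in 2i than in FBS (0.34 ± 0.08), although the higher of its 2 transcript entries taken alone did not pass that second comparison (0.06, adjusted p = 0.559). Cdc25c measured 13.2, 15.2, 11.4 and 13.4 FPKM in the 2i controls and 16.2, 17.6, 16.2 and 14.9 in the knockout, with overlap (0.27 ± 0.08, adjusted p = 0.0157, or 0.0503 without knockout replicate 2). Cdc25a passed neither comparison (39.1, 41.8 and 42.1 FPKM on average), except 2i against FBS without FBS replicate 2 (adjusted p = 0.0090).

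Wee1, the kinase that restrains Cdk1, measured 22.6, 21.6, 26.2 and 25.2 FPKM in the 2i controls, 28.9, 26.4, 27.4 and 26.6 in the knockouts and 29.5, 26.0, 29.4 and 29.3 in FBS. Both other groups averaged more than the 2i controls, by 0.19 ± 0.06 in the knockout (adjusted p = 0.0301) and 0.25 in FBS (2i minus FBS, -0.25 ± 0.06, adjusted p = 0.00359). The knockout call was lost without knockout replicate 1 or 3 or wild-type replicate 1 or 2 (adjusted p 0.0608 to 0.0895) and under median-ratio scaling (0.0545).

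Cdk2 (chr10:128134995-128142107) was higher in 2i than in FBS, at 47.8, 45.0, 45.2 and 48.8 against 37.3, 35.0, 37.0 and 39.4 FPKM (0.32 ± 0.06, adjusted p = 0.0002), and its knockout libraries, at 43.4, 40.0, 44.9 and 48.1 FPKM, did not pass against wild type (adjusted p = 0.255). Its 2 RefSeq transcript entries showed a larger contrast than their sum. NM_183417 holds an exon of 144 bases, 48 codons in frame, that NM_016756 lacks (GRCm38 chr10:128699976-128700119, minus strand, GENCODE vM21). The mRNA sequences around that junction are shown because they are what sets the entries apart; capitals mark the extra exon, with 15 bases of the exons on each side in lower case.
Cdk2 NM_183417: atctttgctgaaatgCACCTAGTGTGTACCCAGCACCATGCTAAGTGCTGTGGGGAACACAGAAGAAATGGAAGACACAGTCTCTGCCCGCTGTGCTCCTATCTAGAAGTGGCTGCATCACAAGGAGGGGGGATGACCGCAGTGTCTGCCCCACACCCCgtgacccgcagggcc
Cdk2 NM_016756: atctttgctgaaatggtgacccgcagggcc
The entry with the exon accounted for 74.4%, 81.6%, 64.6% and 74.9% of Cdk2 FPKM in the 2i controls, 65.2%, 69.5%, 65.3% and 62.3% in the knockout and 43.8%, 33.1%, 41.3% and 24.6% in FBS. All 8 libraries in 2i were above all 4 in FBS, while knockout and wild type overlapped. In FPKM the entry with the exon averaged 34.5, 28.9 and 13.2 in 2i controls, knockouts and FBS cells, and the entry without it 12.2, 15.3 and 23.9. These shares are the authors' estimates from reads that both entries largely share, and no test was made of them.

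Of the 6 CDK inhibitor genes, 5 were higher in 2i than in FBS and 1 lower, with a median difference of 0.66, and in the knockout 1 was higher and 2 lower. The 5 include Cdkn2a, counted by its sum, which was mostly the entry for Arf, a protein that is not a CDK inhibitor. They also include Cdkn2c, which was below 1 FPKM in every FBS library and passed the filter only through its levels in 2i. Cdkn1a (p21; chr17:29230717-29237667) measured 124.6, 142.6, 131.4 and 140.9 FPKM in the 2i controls, 116.5, 141.0, 110.7 and 129.8 in the knockouts and 47.2, 35.2, 41.2 and 30.6 in FBS. Every 2i library stood far above every FBS library (1.8 ± 0.11, adjusted p = 2.49e-08), and knockout and wild type overlapped (-0.12 ± 0.11, adjusted p = 0.418). Set beside Ccne1, whose kinase it inhibits, Cdkn1a was 2.60 ± 0.21 times as abundant in the 2i controls, 2.00 ± 0.27 times in the knockout and 0.270 ± 0.081 times in FBS (SD, n = 4).

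Cdkn1b (p27; chr6:134870419-134875543) measured 20.5, 25.5, 12.7 and 22.3 FPKM in the 2i controls, 13.3, 12.9, 11.7 and 12.6 in the knockouts and 10.4, 12.4, 9.14 and 9.26 in FBS. Wild-type replicate 3 lay within the knockout range and the other 3 wild-type libraries above it. The differences were -0.60 ± 0.16 for the knockout (adjusted p = 0.00986) and 0.88 ± 0.16 for 2i against FBS (adjusted p = 0.000333). Genes of chromosome 6, which carries Cdkn1b, Ccnd2 and Mcm2, were shifted together in some libraries: their median offset over 579 genes was 0.046, 0.185, -0.110 and 0.211 on the log2 scale in wild-type replicates 1 to 4 in 2i and -0.085 to 0.021 in the knockout. With that offset removed Cdkn1b differed by -0.46 ± 0.12 (adjusted p = 0.00751) in the knockout and 0.75 ± 0.12 between media, and Ccnd2 by 1.18 ± 0.16 and -1.06 ± 0.16.

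The INK4 inhibitors of Cdk4 and Cdk6 did not move as one. Cdkn2b (chr4:88952198-88956941) measured 3.27, 3.00, 4.36 and 3.38 FPKM in the 2i controls, 5.27, 5.46, 6.25 and 6.50 in the knockouts and 6.07, 4.46, 4.72 and 4.78 in FBS. It was the inhibitor that rose in the knockout (0.61 ± 0.10, adjusted p = 0.000548) and the one that was lower in 2i than in FBS (-0.42 ± 0.10, adjusted p = 0.00304), with no overlap in either comparison. Cdkn2d measured 16.1, 18.2, 15.6 and 14.7 FPKM in the 2i controls, 12.4, 12.1, 13.4 and 12 in the knockouts and 10.4, 9.86, 10.5 and 9.94 in FBS. It was lower in the knockout (-0.34 ± 0.06, adjusted p = 0.000734) and higher in 2i than in FBS (0.61 ± 0.06); the deposited table lists its single RefSeq entry at 2 places on chromosome 9, so its reads may be split between near-identical copies and the sum is uncertain. Cdkn2c measured 1.54, 1.87, 1.46 and 1.56 FPKM in the 2i controls, 1.54, 1.29, 1.98 and 0.853 in the knockouts and 0.717, 0.689, 0.770 and 0.605 in FBS. It was higher in 2i than in FBS (0.62 ± 0.12, a scale that understates changes at so low a level; the ratio of means was 2.31) and did not pass in the knockout.

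Cdkn2a (chr4:88920377-88940523) encodes unrelated proteins, p16 Ink4a, a CDK inhibitor, and p19 Arf, which acts on the p53 pathway, from different first exons. Summed over both it measured 24.8, 30.4, 25.4 and 30.2 FPKM in the 2i controls, 30.6, 31.1, 31.1 and 33.2 in the knockouts and 18.3, 16.7, 13.2 and 18.5 in FBS (2i minus FBS, 0.70 ± 0.10, adjusted p = 2.82e-05; knockout, 0.18 ± 0.10, adjusted p = 0.143). The Arf entry (NM_009877) made up most of it, at 25.2 ± 2.5, 26.7 ± 0.6 and 13.1 ± 2.0 FPKM in 2i controls, knockouts and FBS cells (SD, n = 4). The Ink4a entry (NM_001040654) averaged 2.49 ± 1.21, 4.79 ± 1.38 and 3.58 ± 0.58 FPKM, which is 8.84%, 15.1% and 21.5% of the gene. So the excess of Cdkn2a in 2i over FBS lay in the Arf entry, while the Ink4a entry was lower on average in the 2i controls than in either other group, with overlap. Mainly the first exons set the entries apart, so the split is less certain than the sum, and it was not tested. Summed over the 6 genes, with the Arf entry included, transcript was 204.0 ± 15.7 FPKM in the 2i controls, 188.4 ± 13.4 in the knockouts and 81.4 ± 8.2 in FBS. Cdkn1a was 66.2%, 65.97% and 47.1% of that sum.

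**Figure D4:**
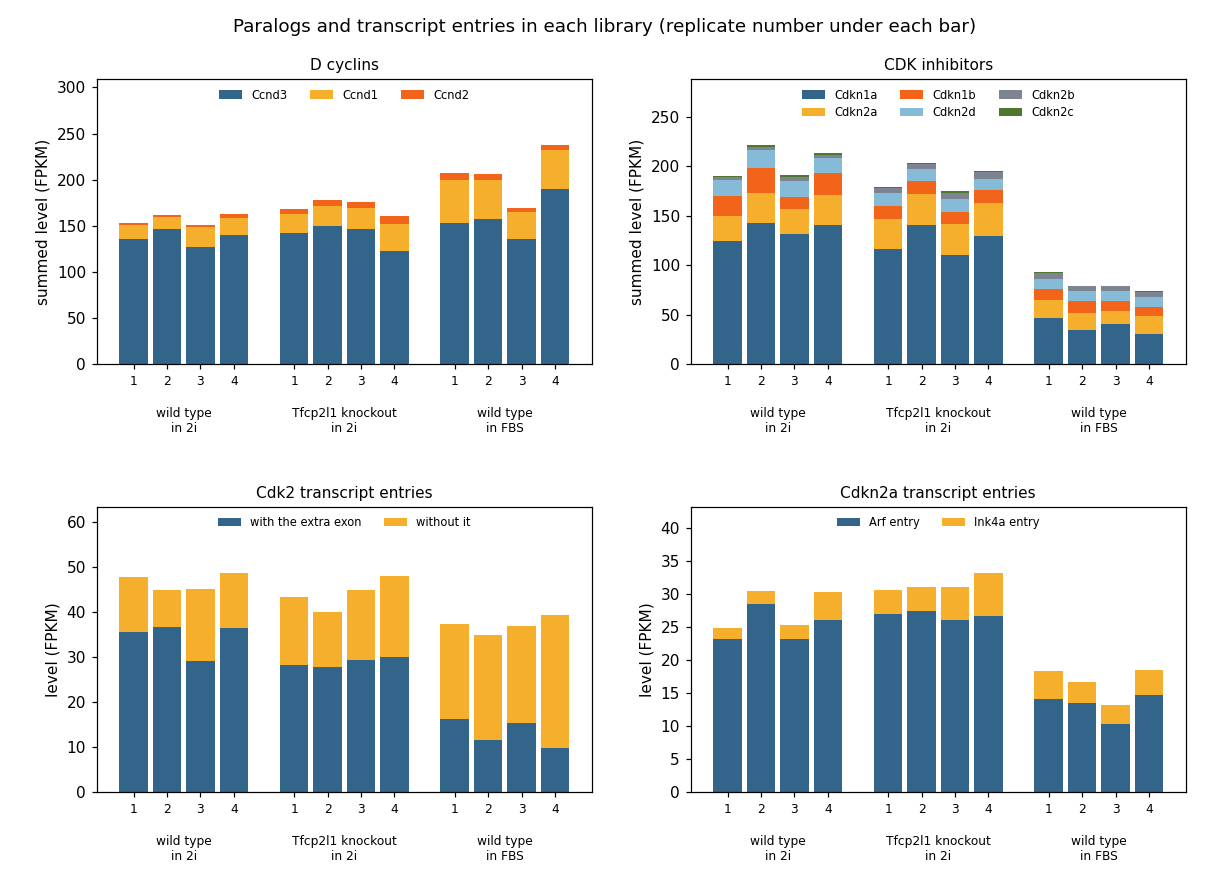
Level in FPKM of the D cyclins, the CDK inhibitors and the transcript entries of Cdk2 and Cdkn2a, stacked, with 1 bar for each library (replicate number below) in 3 groups. Cdkn1a makes up 66.2% of the inhibitor sum (Arf entry included) in the 2i controls and 47.1% in FBS, and the Cdk2 entry with the extra exon 73.9% and 35.7% of the gene.

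None of the 3 pocket proteins passed in the knockout (limma; also 0 at an unadjusted p under 0.05), and 2 were higher in 2i than in FBS. Rbl1 (p107; chr2:157000732-157030270) measured 8.79, 8.58, 7.57 and 8.25 FPKM in the 2i controls, 7.85, 7.04, 7.32 and 7.35 in the knockouts and 5.25, 4.43, 5.81 and 4.70 in FBS. The 2i controls and the FBS libraries did not overlap (0.62 ± 0.07, adjusted p = 6.25e-06). The knockout sum did not pass (-0.15 ± 0.07, adjusted p = 0.121); the higher entry alone did (adjusted p = 0.00875). Rbl2 (p130) measured 1.74, 2.59, 2.18 and 2.49 FPKM in the 2i controls and 1.69, 1.22, 1.59 and 1.10 in FBS, also without overlap (0.44 ± 0.10, adjusted p = 0.00148). Its knockout libraries lay between 1.79 and 1.97 FPKM and did not pass (adjusted p = 0.173; 0.0493 without wild-type replicate 1). Rb1 itself passed neither comparison, with group means of 4.62, 5.15 and 4.85 FPKM. Its share of pocket protein transcript was 30.4%, 35.7% and 43.0% in 2i controls, knockouts and FBS cells.

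Among the 8 E2F factors, 2 were higher and 3 lower in the knockout, and 2 were higher and 4 lower in 2i than in FBS. E2f1, E2f2 and E2f3 are activators, E2f4 and E2f5 act mostly as repressors with pocket proteins, E2f6 represses without them, and E2f7 and E2f8 are atypical repressors of E2F targets. E2f4 (chr8:107821563-107829270) was the most abundant, at 58.4, 57.1, 53.7 and 58.2 FPKM in the 2i controls, 61.4, 60.5, 58.5 and 62.3 in the knockouts and 105.0, 103.6, 93.7 and 105.7 in FBS. Its FBS libraries were well above the rest (-0.83 ± 0.05, adjusted p = 7.22e-09) and it made up 39.7% of E2F transcript in the 2i controls and 51.2% in FBS; the knockout did not pass (0.09, adjusted p = 0.119), though under quantile normalization it did, as higher (0.12, adjusted p = 0.0247). E2f5, its closest relative, went the other way: 24.9, 26.4, 22.2 and 24.2 FPKM in the 2i controls, 18.8, 17.4, 18.2 and 19.4 in the knockouts and 19.6, 22.0, 19.0 and 16.4 in FBS. The 2i controls were above both other groups without overlap, by 0.33 ± 0.08 over FBS (adjusted p = 0.00173), and the knockout difference was -0.39 ± 0.08 (adjusted p = 0.00154).

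The activators split in the knockout. E2f2 fell, from 2.29, 1.98, 2.49 and 1.76 FPKM in the 2i controls to 1.10, 1.35, 1.06 and 1.18 (-0.52 ± 0.08, adjusted p = 0.00034; ratio of means 1.82, control over knockout), and in FBS it measured 1.93, 2.23, 1.78 and 1.98 FPKM, overlapping the 2i controls (adjusted p = 0.481). E2f3 (chr13:29998444-30077932) rose, from 5.50, 4.83, 6.54 and 5.89 FPKM to 7.74, 6.87, 7.38 and 7.48 (0.33 ± 0.08, adjusted p = 0.00438), and was higher still in FBS, at 11.2, 11.8, 10.3 and 12.2 FPKM (-0.89 ± 0.08, adjusted p = 3.96e-07). E2f1 made up most activator transcript and differed little: 33.6 ± 1.1, 30.6 ± 0.9 and 31.1 ± 0.8 FPKM in 2i controls, knockouts and FBS cells. Its knockout call as lower (-0.13 ± 0.04, adjusted p = 0.0163) was lost without knockout replicate 2 (adjusted p = 0.0542), and its call as higher in 2i than in FBS (0.11 ± 0.04, adjusted p = 0.0263) without wild-type 2i replicate 1 or 2 or FBS replicate 1 or 4 (adjusted p 0.0565 to 0.0731) or with 8 libraries alone (0.0594).

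E2f8 (chr7:56121799-56136411) measured 7.11, 7.72, 6.44 and 8.29 FPKM in the 2i controls, 9.67, 8.93, 9.64 and 8.06 in the knockouts and 17.8, 19.5, 16.3 and 20.8 in FBS. The FBS libraries were separate from both 2i groups (-1.22 ± 0.09, adjusted p = 7.05e-08). Knockout replicate 4 lay within the wild-type range, and the knockout call (0.27 ± 0.09, adjusted p = 0.0258) was lost without knockout replicate 1 or 3 or wild-type replicate 1 or 3 (adjusted p 0.0619 to 0.0724). E2f7 measured 4.62, 4.19, 4.33 and 3.78 FPKM in the 2i controls, 4.87, 4.63, 4.56 and 4.25 in the knockouts and 6.77, 5.71, 7.06 and 5.71 in FBS, so it too was lower in 2i than in FBS (-0.48 ± 0.08, adjusted p = 8.67e-05). E2f6 passed neither comparison, with means of 9.06, 9.86 and 8.44 FPKM, except 2i against FBS without FBS replicate 1 (adjusted p = 0.0103).

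Licensing factors other than Cdc6 were abundant, and the class moved little in the knockout: 1 of 10 was higher and 4 were lower, with differences between -0.16 and 0.21. Between media 2 were higher and 4 lower in 2i than in FBS, with differences between -0.65 and 0.31. The loaders Cdc6 and Cdt1 were lower in 2i. Cdc6 (chr11:98769203-98785256) measured 10.3, 9.63, 9.07 and 10.1 FPKM in the 2i controls, 10.3, 10.4, 11.4 and 10.4 in the knockouts and 16.9, 14.0, 15.2 and 17.6 in FBS. Cdt1 (chr8:125091915-125097030) measured 72.9, 74.2, 67.6 and 73.1 FPKM in the 2i controls, 76.8, 77.5, 72.0 and 69.9 in the knockouts and 103.2, 89.7, 96.4 and 102.9 in FBS. For both, all FBS libraries were above all wild-type 2i libraries (-0.65 ± 0.07 and -0.44 ± 0.05, adjusted p = 2.75e-06 and 8.56e-06) and the knockout did not pass. Gmnn, the inhibitor of Cdt1, measured 94.9, 90.4, 92.4 and 93.8 FPKM in the 2i controls, 82.0, 83.5, 87.2 and 87.7 in the knockouts and 94.5, 92.3, 97.5 and 101.2 in FBS. Only its knockout difference passed (-0.12 ± 0.04, adjusted p = 0.0196), and that was lost without knockout replicate 1 or 2 or wild-type replicate 1 (adjusted p 0.0545 to 0.0649) and under quantile normalization (0.121). The ratio of Gmnn to Cdt1 FPKM was 1.29 ± 0.06 in the 2i controls, 1.15 ± 0.09 in the knockouts and 0.985 ± 0.050 in FBS (SD, n = 4).

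The 6 subunits of the MCM ring, which assemble in equal numbers, had transcript levels within 1.798-fold of each other on average in the 2i controls, 1.56-fold in the knockout and 1.90-fold in FBS. Mcm7 (chr5:138605817-138613090), the scarcest in the 2i controls, rose in the knockout: 87.8, 82.6, 94.9 and 90.8 FPKM in the 2i controls, 100.5, 99.0, 107.6 and 105.6 in the knockouts and 105.8, 93.5, 103.8 and 104.5 in FBS (0.21 ± 0.05, adjusted p = 0.00593; 2i minus FBS, -0.19 ± 0.05, adjusted p = 0.00514). Mcm3, the most abundant, measured 163.1, 157.4, 152.3 and 155.9 FPKM in the 2i controls, 142.8, 136.9, 143.4 and 142.2 in the knockouts and 171.8, 162.2, 176.0 and 178.4 in FBS (-0.15 ± 0.04, adjusted p = 0.00643; 2i minus FBS, -0.13 ± 0.04). Mcm4 measured 103.4, 103.7, 99.5 and 99.3 FPKM in the 2i controls, 90.8, 89.7, 93.4 and 90.2 in the knockouts and 94.0, 85.8, 93.1 and 97.2 in FBS (-0.16 ± 0.04, adjusted p = 0.00782; 2i minus FBS, 0.13 ± 0.04), and its knockout call was lost under quantile normalization (-0.09, adjusted p = 0.0726). So in the knockout Mcm7, the scarcest subunit of the 2i controls, was higher and Mcm3, the most abundant, lower. Each did so without overlap with wild type in 2i. Mcm4, the next scarcest in the 2i controls, was lower, also without overlap, and was the scarcest subunit in the knockout. The direction therefore did not follow scarcity across the ring. The summed ring transcript was 709.8 ± 6.8 FPKM in the knockouts against 744.8 ± 10.1 in the 2i controls (SD, n = 4).

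Mcm6 was lower in the knockout by 0.10 ± 0.03 (adjusted p = 0.0314), a call kept without wild-type replicate 3 or 4 and lost without each of the other 6 libraries (adjusted p 0.0504 to 0.0874). Mcm5 did not pass in either comparison, nor did Mcm2 (149.6, 133.4 and 166.7 FPKM on average), though with 8 libraries alone Mcm2 passed as lower in the knockout (-0.16, adjusted p = 0.0379). With the chromosome 6 offset removed, the knockout difference of Mcm2 was -0.02 ± 0.05 (limma, adjusted p = 0.775). For Mcm2, on chromosome 6, the difference between 2i and FBS went from -0.15 ± 0.07 (adjusted p = 0.0799) to -0.28 ± 0.05 (adjusted p = 0.000357) with the chromosome 6 offset removed, and it also passed without wild-type 2i replicate 4 or FBS replicate 3 (adjusted p 0.00936 to 0.0274). Without FBS replicate 2, Mcm5 and Mcm6 passed as lower in 2i (adjusted p = 0.0235 and 0.0362). Pcna, the sliding clamp of replicative polymerases, measured 165.2, 152.6, 169.3 and 157.7 FPKM in the 2i controls, 142.4, 145.2, 151.3 and 155.5 in the knockouts and 131.2, 123.2, 126.3 and 137.0 in FBS. It was higher in 2i than in FBS without overlap (0.31 ± 0.05, adjusted p = 4.99e-05), and did not pass in the knockout (-0.12). It passed as lower there without knockout replicate 4 or wild-type replicate 2 (adjusted p 0.0348 to 0.0462) and under median-ratio scaling (-0.14, adjusted p = 0.0426).

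None of the 7 mitotic and proliferation genes passed in the knockout (limma; 0 higher and 2 lower at an unadjusted p under 0.05), with differences between -0.18 and 0.03. Leaving out wild-type replicate 2 made Plk1 and Aurka pass as lower (adjusted p = 0.0213 and 0.0427), and leaving out wild-type replicate 3 made Aurkb pass as lower (adjusted p = 0.0143). Under median-ratio scaling Plk1 and Aurkb passed as lower (adjusted p = 0.0316 and 0.0227), and with the 8 libraries of the comparison fitted alone Aurkb and Top2a did (0.0229 and 0.00941). Between media 4 were lower and 2 higher in 2i. Mki67 (chr7:142881471-142908062), a marker of cycling cells, measured 22.9, 21.3, 20.1 and 20.6 FPKM in the 2i controls, 21.2, 21.9, 20.7 and 20.03 in the knockouts and 31.4, 32.9, 33.1 and 25.3 in FBS (-0.50 ± 0.08, adjusted p = 5.74e-05). Plk1, a kinase of mitotic entry, measured 49.7, 47.3, 57.4 and 56.1 FPKM in the 2i controls, 46.3, 45.7, 48.7 and 47.5 in the knockouts and 74.1, 64.4, 74.1 and 68.4 in FBS (-0.41 ± 0.06, adjusted p = 8.08e-05). Both had higher values in every FBS library than in any 2i library.

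Bub1, a kinase of the spindle checkpoint, and Cdc20, the activator of the anaphase-promoting complex that this checkpoint restrains, showed the same order. Bub1 measured 32.8, 33.0, 31.9 and 35.1 FPKM in the 2i controls, 34.6, 35.2, 33.4 and 32.2 in the knockouts and 43.1, 41.8, 50.1 and 37.9 in FBS (-0.36 ± 0.07, adjusted p = 0.000393). Cdc20 (chr4:118105506-118109948) measured 107.9, 99.3, 118.1 and 116.4 FPKM in the 2i controls, 106.7, 108.8, 102.5 and 92.1 in the knockouts and 147.9, 135.0, 129.1 and 138.7 in FBS (-0.32 ± 0.07, adjusted p = 0.000844). Against these, Aurkb, a kinase of chromosome alignment and cytokinesis, was higher in 2i than in FBS (54.3 ± 4.0 and 43.8 ± 4.6 FPKM; 0.31 ± 0.07, adjusted p = 0.00161), as was Top2a, the topoisomerase that untangles replicated DNA (119.6 ± 5.2 and 101.4 ± 14.5 FPKM; 0.25 ± 0.08, adjusted p = 0.014). Aurka passed in neither comparison. The mitotic genes thus did not shift together between media: Cdk1, Ccnb1, Ccnb2, Aurkb and Top2a were higher in 2i, and Plk1, Bub1, Cdc20 and Mki67 lower.

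These classes also differ in the letters of their promoters, which are shown because the licensing and mitotic genes are the textbook examples of E2F and CHR control. RefSeq windows from 250 bases before to 50 after the transcription start (GRCm38.p6) were found for 39 of the 51 members, 46 windows in all because some have more than 1 start. The letters of the E2F element (TTTCCCGC, TTTCGCGC, TTTGCCGC or TTTGGCGC, either strand) stood in 30.4% of member windows and in 2.3% of the 32851 windows of all genes. They stood in 6 of 9 licensing windows and 0 of 6 mitotic ones. Below, the 200 bases before the start of Mcm5 (chr8:75109309-75109508, plus strand) and Mcm6 (chr1:128359706-128359905, minus strand) are given with these letters in capitals. In each, a pair of matches on opposite strands overlaps in 1 run of capitals, and Mcm6 holds another nearer the start.
Mcm5: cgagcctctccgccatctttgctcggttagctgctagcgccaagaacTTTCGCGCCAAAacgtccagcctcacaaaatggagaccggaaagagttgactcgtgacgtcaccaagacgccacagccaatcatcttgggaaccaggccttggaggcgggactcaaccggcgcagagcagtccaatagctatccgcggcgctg
Mcm6: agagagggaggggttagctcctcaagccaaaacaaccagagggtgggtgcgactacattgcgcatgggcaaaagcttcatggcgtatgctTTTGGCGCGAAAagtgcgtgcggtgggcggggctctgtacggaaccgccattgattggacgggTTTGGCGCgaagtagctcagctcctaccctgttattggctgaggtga

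The CHR letters (TTTGAA or TTCGAA, either strand) stood in 37.0% of member windows and 19.2% of all windows, and CCAAT, the element bound by NF-Y, in 65.2% and 37.4%. All 6 mitotic windows held both, and 2 of 9 licensing windows held CHR letters. The 200 bases before the start of Cdc20 (chr4:118437344-118437543), Top2a (chr11:99024190-99024389) and Cdk1 (chr10:69352913-69353112), all on the minus strand, are given with CHR and CCAAT letters of either strand in capitals. They were picked because Cdc20 was lower and Top2a and Cdk1 higher in 2i than in FBS. All hold both kinds of letters near the start, in differing numbers. Cdk1 is counted with the CDKs, not among the 6 mitotic windows. Whether these letters bear on the direction was not tested.
Cdc20: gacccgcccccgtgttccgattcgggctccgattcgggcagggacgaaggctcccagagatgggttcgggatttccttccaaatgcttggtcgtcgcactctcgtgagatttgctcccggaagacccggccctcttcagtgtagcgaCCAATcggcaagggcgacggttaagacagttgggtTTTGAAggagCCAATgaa
Top2a: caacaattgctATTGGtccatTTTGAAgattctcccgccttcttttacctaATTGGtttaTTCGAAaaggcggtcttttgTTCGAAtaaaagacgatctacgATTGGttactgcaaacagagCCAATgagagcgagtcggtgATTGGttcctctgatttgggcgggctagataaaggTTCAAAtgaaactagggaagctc
Cdk1: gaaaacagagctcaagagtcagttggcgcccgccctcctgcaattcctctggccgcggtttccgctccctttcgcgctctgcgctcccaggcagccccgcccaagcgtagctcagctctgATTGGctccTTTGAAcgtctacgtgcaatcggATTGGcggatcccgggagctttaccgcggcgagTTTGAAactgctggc
The Cdk1 window also holds 1 match to the E2F letters. For Tfcp2l1 itself, the letters of its paired half-site motif, on either strand, stood in 4.3% of member windows, those of Cdkn2a (Arf start) and Cdkn2c, and in 5.3% of all windows. A match describes these letters only, and the lack of one says nothing of binding outside the window.

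Other cell cycle genes were grouped in 7 lists beside the 51. The counts below stand against 45.3% of all tested genes called in the knockout (24.0% higher, 21.4% lower). Between media 72.4% of all tested genes were called (37.1% higher in 2i, 35.3% lower). Of 22 genes of origin recognition and helicase activation, 4 were higher and 5 lower in the knockout, and 4 higher and 9 lower in 2i than in FBS. Gins2, part of the active helicase, fell in the knockout (55.3 to 36.6 FPKM; -0.58, adjusted p = 4.28e-05) and Mcm10 rose (38.9 to 50.2 FPKM; 0.36), while Ticrr, which helps fire origins, was much higher in 2i than in FBS (66.9 and 19.8 FPKM; 1.70, adjusted p = 5.92e-08). Of 20 fork polymerase and clamp loader genes, 0 were higher and 3 lower in the knockout (limma; 2 and 3 at an unadjusted p under 0.05), led by Rpa3 (52.4 to 36.3 FPKM; -0.51), and 5 were higher and 6 lower in 2i. Of 9 genes of nucleotide supply, 1 was higher and 1 lower in the knockout, and 1 was higher and 3 lower in 2i, among them thymidine kinase Tk1, which fell in the knockout (36.9 to 27.6 FPKM; -0.40) and was higher in 2i than in FBS (21.1 FPKM; 0.77).

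Of 23 spindle, kinetochore and cytokinesis genes, 3 were higher and 5 lower in the knockout, and 7 each way between media. Spc25 and Spc24, which form one end of the kinetochore NDC80 complex, fell in the knockout (-0.63 and -0.43, adjusted p = 1.5e-06 and 0.000155), and Ndc80 of the same complex rose (0.29, adjusted p = 0.00806). Of 19 genes of the APC/C and SCF ubiquitin ligases, 8 were higher and 3 lower in the knockout, and 8 each way between media. Ube2c, which serves the APC/C, fell in the knockout (224.8 to 159.9 FPKM; -0.49, adjusted p = 2.05e-05), and Skp2 and Cks1b, which direct SCF to Cdkn1b protein, were lower in 2i than in FBS (-0.75 and -0.64). Of 11 MuvB complex, DP partner and other cell cycle transcription factor genes, 1 was higher and 3 lower in the knockout, and 3 higher and 4 lower in 2i. Mycn and Myc were both lower in 2i than in FBS (25.7 and 97.6 FPKM for Mycn, 5.03 and 14.5 FPKM for Myc; -1.88 and -1.36), and Myc was higher in the knockout (7.62 FPKM; 0.53, adjusted p = 0.0112). Of 17 other CDK, cyclin and checkpoint genes, 5 were higher and 2 lower in the knockout, and 5 each way between media. Cdkn1c (p57), the Cip/Kip inhibitor outside the 51, averaged 1.71 FPKM in the 2i controls, 6.70 in the knockouts and 14.2 in FBS (1.45 and -2.32, adjusted p = 0.00472 and 5.25e-05), the opposite order of means to Cdkn1a and Cdkn1b. With the fibroblast marker level in the model, the 44 knockout calls among the 121 genes of these lists became 10, 5 in each direction. The share of all genes called in the knockout went from 45.3% to 16.1%. Spc25, Ube2c and Gins2 still passed as lower (adjusted p = 0.00169, 0.000988 and 0.0182), and Cdkn1c and Myc did not pass (0.89 and 0.45, adjusted p = 0.35 and 0.296).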

How the data were processed

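RNA was extracted with Trizol and libraries made with the Illumina TruSeq kit, per the labels' protocols. The authors deposited FPKM values with bounds for RefSeq transcript entries on mm9; the submitters' processing notes name CASAVA 1.8.2 and Cufflinks, with no Cufflinks version. Depth, strand use and read filters are not given in the sources used here, so reads of overlapping genes on opposite strands cannot be told apart.

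Entries were named by RefSeq and GENCODE vM21 (98.8% of 30761 matched) and summed per symbol; 7 genes with a failed estimate were left out. The 12329 genes that reached 1 FPKM in 4 or more libraries entered limma 3.58.1 on log2(FPKM + 1), 1 mean per group over 12 libraries, with Benjamini-Hochberg adjustment over all genes and calls at adjusted p below 0.05. Differences and SEs are on this scale, which understates changes of low genes; folds are ratios of group mean FPKM, with no test of their own. The procedure was tested on simulated data with few changed genes and independent noise, unlike these data. That test therefore does not cover shifts that many genes of a library share. All 63 member entries had status OK, and for members with 1 entry the upper bound lay a median of 5.6% from the value; 235 of 480 such bounds were below the value, so no interval was used.

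Members and lists were chosen with earlier results of these data known. Per class and comparison, up to 4 called members with the largest differences and the most abundant one are given in every library; per other list, up to 3 called genes were eligible. Alternatives covered the pseudocount, filter, scaling, libraries fitted, replicate number, entries per symbol, chromosome 6, fibroblast markers and each library left out.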

Additional observations from a re-analysis of the deposited data

Results flagged for a closer look

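In 5 of the 153 combinations of a member and a group, 1 of the 4 libraries stood apart from the other 3 by more than Dixon's 95% critical value; chance alone flags about 1 in 20 groups. Ccne1 in the knockout was at 56.6 FPKM in replicate 4 and at 63.6 to 65.0 in the others. Wee1 in FBS was at 26.0 FPKM in replicate 2 and at 29.3 to 29.5 in the others. E2f6 in FBS was at 10.3 FPKM in replicate 1 and at 7.71 to 7.98 in the others. Cdc6 in the knockout was at 11.4 FPKM in replicate 3 and at 10.3 to 10.4 in the others. Mcm7 in FBS was at 93.5 FPKM in replicate 2 and at 103.8 to 105.8 in the others.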

How the results depend on the processing

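Adding the fibroblast marker level to the model left 0 members higher, 2 lower and 1982 of all genes called in the knockout, and turned Ccnd1 to -0.08. Of the 23 called members 8 had a difference as large or larger in that model, and the standard errors were a median of 1.75 times the former ones. The marker level did not overlap between the 2i controls and the knockouts, so that model cannot separate it from the knockout. The other alternatives (0.01 and 0.1 pseudocounts, filters, scalings, fits and leave-outs) kept the direction of each called member they tested; the filter of 5 FPKM tested 47 of the 51, without Cdk6, E2f2, Rbl2 and Cdkn2c. Leaving out each library gave 5 to 9 members higher in the knockout (5 without knockout replicate 3 or wild-type replicate 1), 10 to 16 lower and 4710 to 5922 genes called, and, for 2i against FBS, 18 to 20 higher, 17 to 21 lower and 8506 to 8966 genes called. Of the 23 knockout calls, 14 were kept without each library in turn, and 12 also under all the other alternatives but the fibroblast term, plus E2f2 where tested; of the 38 between media, 35 and 32, plus Cdkn2c and Rbl2 where tested. Taking the highest entry per symbol turned Cdc7, outside the 51, from 0.15 to -0.44 in 2i against FBS; the cause was not tested. The replicate numbers are shared by the groups. Deviations of same-number libraries correlated at 0.055 to 0.258 for the 2i controls and knockouts and at 0.027 to 0.186 for the 2i controls and FBS cells. Pairs of unlike number correlated at -0.300 to 0.154 and at -0.206 to 0.114. Control replicates 2, 3 and 4 each correlated best with their own number in the knockout, and replicate 1 did not. Against FBS, only control replicates 2 and 4 did. Whether the numbers mark libraries handled together was not tested. With the replicate block in limma, 7 members were higher and 15 lower in the knockout with 5567 genes called. Cdk1 and Plk1 then passed as lower (adjusted p = 0.0268 and 0.0319), and Ccnd1, Ccne1 and Mcm6 did not pass (0.0501 to 0.0532). Between media that fit gave 20 higher and 18 lower, with 8899 genes called. Read depth is unknown, so its limit on low genes such as Cdkn2c and E2f2 could not be computed.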
